A study of Mus musculus with 8 samples.

Results

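The genes described here are 9 genes of iron handling, a small group out of 22552 gene symbols measured in RNA from UCP1-positive fat cells: the plasma iron carrier transferrin (Trf), its receptor (Tfrc), the ferritin heavy and light chains (Fth1 and Ftl1), the exporter ferroportin (Slc40a1), the divalent metal transporter DMT1 (Slc11a2), heme oxygenase 1 (Hmox1), and the iron regulatory proteins (Aco1 and Ireb2). They were chosen by name, with the depot differences in these same files already known, so their differences between depots are given as a description that supports nothing further. Where members are counted among the genes that pass a threshold, the share of all genes stands beside the count and nothing is read from it. In the UCP1-TRAP mouse, ribosomes of cells that express Ucp1, the uncoupling protein of thermogenic fat, carry a GFP tag, and an antibody against GFP pulls down the RNA those ribosomes were translating. All libraries came from female mice labelled C57B/6 UCP1-TRAP, aged 6 weeks, that were bred at 30 °C, moved to room temperature at weaning at 3 weeks and kept at 4 °C for 2 weeks from the age of 4 weeks. The groups were inguinal white adipose tissue (inguinal WAT, 3 libraries), perigonadal white adipose tissue (perigonadal WAT, 2 libraries) and brown adipose tissue (BAT, 3 libraries). Every group was exposed to cold, so the comparison is between depots only, and the pull-down is aimed at cells in which Ucp1 was active. Whether libraries of a group came from different animals or from pools is not given in the sources used here, so the spread between them may be technical.

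Iron enters most cells as transferrin bound to its receptor, which is taken up into endosomes, and DMT1 then moves the freed iron into the cytosol. Iron that is not used at once is stored in ferritin shells built of heavy chains, which oxidise the iron, and light chains, which help it to mineralise, while ferroportin carries iron out of the cell and heme oxygenase 1 releases it from heme. The iron regulatory proteins bind a short hairpin, the iron-responsive element (IRE), when the cell holds little iron. A hairpin in the 5′ untranslated region (UTR) then blocks translation, and hairpins in the 3′ UTR protect the transcript from decay. Thermogenic adipocytes use iron for the heme and iron-sulfur clusters of their many mitochondria.

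The hairpins are shown because they separate the members with a match to this element from those without one in the sequence searched. The search looked on the sense strand for an unpaired C, a stem of 5 base pairs (G-U pairs allowed) and the 6-base loop CAGTGN in the UTRs of reference transcripts (GENCODE M21) that carry the RefSeq accessions of the files. The windows below hold 30 bases, 5′ to 3′, from GENCODE's GRCm38 transcripts, with the unpaired C and the loop in capitals. Fth1 and Ftl1 each held 1 match in the 5′ UTR, at transcript positions 87 to 116 and 78 to 107, and Tfrc held 4 in the 3′ UTR, which start at positions 3315, 3694, 3759 and 3806.
Fth1: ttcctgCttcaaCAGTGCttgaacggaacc
Ftl1: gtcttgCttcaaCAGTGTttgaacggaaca
Tfrc, start 3315: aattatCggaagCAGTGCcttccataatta
Tfrc, start 3694: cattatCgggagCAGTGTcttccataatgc
Tfrc, start 3759: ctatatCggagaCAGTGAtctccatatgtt
Tfrc, start 3806: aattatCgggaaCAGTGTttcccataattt

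The ferritin chains share the upper stem, and their loops differ at the last base. Slc40a1 also held 1 match in its 5′ UTR. Of the 2 Slc11a2 transcripts in the files, NM_001146161 held 1 match in its 3′ UTR when 1 unpaired base in the stem was allowed, and NM_008732 held none. No match was found in the UTRs of Trf, Hmox1, Aco1 or Ireb2, which says only that this pattern is not in those windows. Among 24698 transcripts searched, 0.615 percent held a match with a full stem in a UTR, 0.109 percent in the 5′ UTR and 0.506 percent in the 3′ UTR. With 1 unpaired base allowed the share was 1.67 percent.

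Values are FPKM (fragments scaled to the length of the transcript and to the size of the library), as computed by the authors with Cufflinks and summed here over the transcripts of a gene. Between 267440 (inguinal WAT replicate 3) and 1152088 (perigonadal WAT replicate 1) fragments per library fell on listed genes, and 5859 to 9548 genes reached an FPKM of 1. Summed FPKM was 75925 in the former library and 206549 in the latter, the lowest and the highest of the 8, so a shift common to most genes separates these libraries. The median difference of all 8958 tested genes from BAT was 0.52 on the log2 scale in perigonadal WAT and 0.03 in inguinal WAT. After each library was divided by the median ratio of its genes to their mean over libraries (median-ratio scaling), these medians were 0.04 and 0.02, and scaled values are given beside the deposited ones. Ucp1 stood between 592 and 1593 FPKM in all 8 libraries, and summed adipocyte markers were between 3340 and 10221 FPKM. Of the markers of other cells, mammary epithelium genes summed to 122 to 166 FPKM in inguinal WAT, 3.44 to 3.71 in perigonadal WAT and 7.02 to 22.3 in BAT, where Csn3 made up nearly all of the sum. Endothelial markers summed to 1.27 to 4.66 FPKM in inguinal WAT, 8.68 to 16.1 in perigonadal WAT and 2.61 to 4.11 in BAT, and their part in the perigonadal values was not tested.

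Trf differed most between depots. Transferrin (chr9:103111206-103132616, minus strand, mm9) stood at 18.5, 34.5 and 18.8 FPKM in inguinal WAT replicates 1, 2 and 3. In perigonadal WAT it stood at 98.2 and 41.2 FPKM, and in BAT at 2.22, 0.925 and 0.715 FPKM. All 5 WAT libraries lay above all 3 BAT libraries, and both perigonadal libraries lay above all inguinal libraries. Mean levels were 23.9 ± 9.15 FPKM (SD, n = 3) in inguinal WAT, 69.7 ± 40.3 (SD, n = 2) in perigonadal WAT and 1.29 ± 0.817 (SD, n = 3) in BAT. The ratio of means to BAT was 18.6 for inguinal and 54.1 for perigonadal WAT, and 19.1 and 32.4 after scaling.

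The depth behind the low BAT values was small. Recovered fragments of Trf numbered 16 over the 3 BAT libraries, against 321 over the inguinal and 799 over the perigonadal libraries. The Cufflinks bounds in BAT replicate 1, 0.741 to 3.71 FPKM, stayed below every WAT value, as did those of the other BAT libraries. On log2(FPKM + 1), which understates changes of low genes, Trf was higher than in BAT by 3.44 (SE 0.42) in inguinal and 4.88 (SE 0.47) in perigonadal WAT. Inguinal WAT lay below perigonadal WAT by a log2 difference of -1.44 (SE 0.47), and by -0.78 (SE 0.37) after scaling, when the nearest libraries of both depots stood at 34.7 and 35.7. In rank among all gene symbols by FPKM, Trf stood between 324 and 1240 in WAT libraries and between 4949 and 7896 in BAT libraries.

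Trf is abundant in liver and is made in lactating mammary gland, so markers of both are given beside it. The mammary sums given above were highest in inguinal WAT and lowest in perigonadal WAT, with BAT between them through Csn3 alone. In BAT the other mammary markers were at 0 except Cldn3 (0.349 FPKM in replicate 3). Perigonadal WAT held low values of several of them, such as Krt8 at 0.981 and 0.202 FPKM. Expi was at 55.2 to 63.7 FPKM in inguinal WAT and at 0 in the other 5 libraries. Of the milk protein genes, Csn3 was at 15.3, 12.9 and 12.5 FPKM in inguinal WAT, at 0.482 and 1.39 in perigonadal WAT and at 7.02, 13.1 and 22.0 in BAT. Inguinal WAT and BAT thus overlapped for Csn3. In inguinal WAT, Csn1s1 was at 2.33 in replicate 2 and Lalba at 2.27 in replicate 3. Csn2 and Wap were at 0 in all 8 libraries. The 5 hepatocyte markers summed to 2.33 to 3.71 FPKM in inguinal WAT, 4.15 to 4.72 in perigonadal WAT and 1.59 to 2.76 in BAT, and Apoa1 and Ttr were at 0 in every library. The part of other cells in the Trf level of inguinal WAT was not tested. In these bulk ribosome pull-downs, fewer cells with a transcript, less of it per cell and less of it on ribosomes cannot be told apart.

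Tfrc, the transferrin receptor (chr16:32608982-32632880, plus strand), did not follow its ligand. It stood at 10.1, 4.56 and 3.26 FPKM in inguinal WAT, at 8.23 and 11.1 in perigonadal WAT and at 10.3, 8.90 and 11.7 in BAT. Inguinal replicates 2 and 3 were the low libraries, and inguinal replicate 1 lay among the BAT values, so neither depot was clear of BAT. The log2 difference from BAT was -0.81 (SE 0.41) in inguinal WAT. In perigonadal WAT it was -0.09 (SE 0.46) as deposited and -0.67 (SE 0.32) after scaling. The scaled libraries no longer overlapped, with inguinal WAT at 4.03 to 8.34, perigonadal WAT at 4.60 to 9.59 and BAT at 9.77 to 13.2. The ratio of Trf to Tfrc within a library, which any scaling of that library leaves unchanged, was 1.83, 7.56 and 5.77 in inguinal WAT and 11.9 and 3.73 in perigonadal WAT. In BAT it was 0.216, 0.104 and 0.0610.

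**Figure D1:**
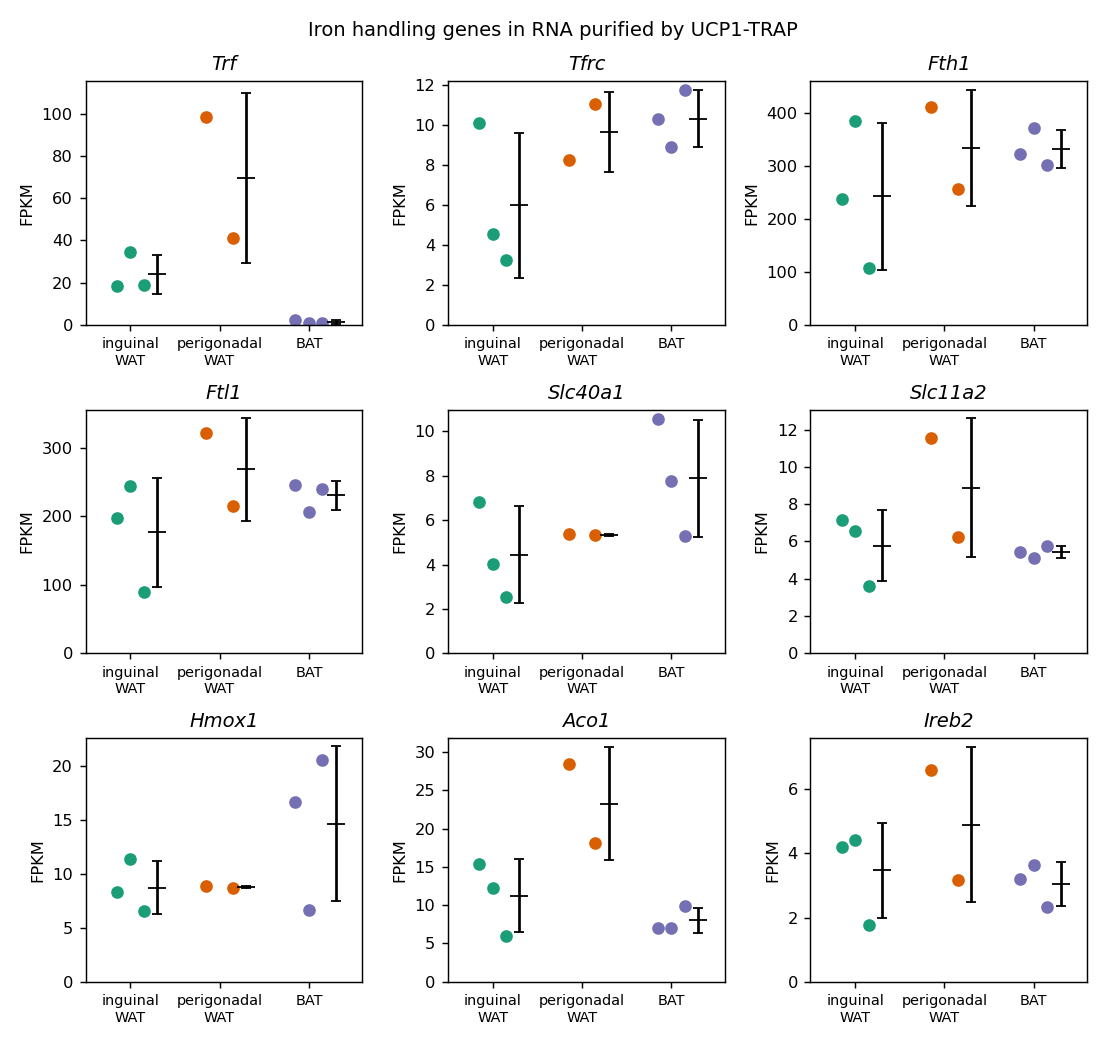
FPKM of the 9 iron handling genes (each on its own linear axis from 0) in inguinal WAT, perigonadal WAT and BAT, with 1 point per library and the mean ± SD of 3, 2 and 3 libraries in black. Trf is at 18.5 to 98.2 FPKM in WAT and at 0.715 to 2.22 in BAT, while the ferritin chains span overlapping ranges in all 3 depots.

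The ferritin chains had the highest FPKM of the 9 genes in every library. Fth1 (chr19:10057193-10059582, plus strand) stood at 237, 385 and 107 FPKM in inguinal WAT, at 412 and 257 in perigonadal WAT and at 323, 372 and 303 in BAT. Ftl1 (chr7:52713314-52715256, minus strand) stood at 197, 244 and 88.8 FPKM in inguinal WAT, at 321 and 216 in perigonadal WAT and at 245, 207 and 239.5 in BAT. In deposited units, both genes had their lowest value in inguinal replicate 3 and their highest in perigonadal replicate 1, the libraries with the lowest and highest FPKM totals. By rank, Fth1 stood between 46 and 127 and Ftl1 between 82 and 158 among all gene symbols.

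As deposited, ferritin levels overlapped between BAT and each WAT depot. Log2 differences from BAT were -0.63 (SE 0.34) for Fth1 and -0.50 (SE 0.34) for Ftl1 in inguinal WAT. In perigonadal WAT they were -0.03 (SE 0.38) for Fth1 and 0.195 (SE 0.38) for Ftl1 as deposited, and -0.68 (SE 0.24) and -0.46 (SE 0.19) after scaling, so the direction for Ftl1 depends on the scaling. Scaled Ftl1 was at 163 to 215 in inguinal WAT, 180 to 187 in perigonadal WAT and 227 to 269 in BAT. Scaled Fth1 was at 196 to 340 in inguinal WAT and 223 to 230 in perigonadal WAT, against 340 to 408 in BAT. The highest inguinal library and the lowest BAT library met at 340 scaled units.

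The ratio of Fth1 to Ftl1 within a library, per kilobase of transcript, was 1.33 ± 0.22 (SD, n = 3) in inguinal WAT, 1.24 ± 0.063 (SD, n = 2) in perigonadal WAT and 1.46 ± 0.30 (SD, n = 3) in BAT, and the groups overlapped. BAT replicate 2 was highest at 1.80 and perigonadal replicate 2 lowest at 1.19. Near-identical ferritin copies exist in the mouse genome, and how fragments shared with them were assigned is not given, so the absolute ferritin levels are uncertain. Recovered fragments were whole numbers for Fth1 in every library, and for Ftl1 in every library except inguinal replicate 1 (389.16).

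Slc40a1, the ferroportin gene (chr1:45964915-45982439, minus strand), stood at 6.80, 4.02 and 2.52 FPKM in inguinal WAT, at 5.37 and 5.32 in perigonadal WAT and at 10.6, 7.78 and 5.29 in BAT. BAT replicates 1 and 2 were above every WAT library, and BAT replicate 3 lay among them. The log2 difference from BAT was -0.74 (SE 0.41) in inguinal WAT, and in perigonadal WAT it was -0.44 (SE 0.45) as deposited and -0.98 (SE 0.29) after scaling. Scaled values were 3.55 to 5.63 in inguinal WAT, 3.00 to 4.61 in perigonadal WAT and 5.94 to 11.3 in BAT. Macrophages that recycle iron are rich in ferroportin. The macrophage markers summed to 6.13 to 7.998 FPKM in inguinal WAT, 7.28 to 19.3 in perigonadal WAT and 5.80 to 12.6 in BAT, with Fcgr1 at 0 in all libraries, and their part in the Slc40a1 values was not tested.

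Slc11a2 (chr15:100218331-100253486, minus strand), the endosomal iron transporter, summed over both transcripts to 7.16, 6.56 and 3.61 FPKM in inguinal WAT, to 11.5 and 6.25 in perigonadal WAT and to 5.45, 5.11 and 5.77 in BAT. Both perigonadal libraries lay above BAT as deposited, by a log2 difference of 0.57 (SE 0.45), and the difference was -0.01 (SE 0.19) after scaling. In inguinal WAT it was 0.03 (SE 0.40). The split by transcript is shown because only NM_001146161 carried the hairpin match. NM_008732 made up 43.7, 47.8 and 53.9 percent of the gene in inguinal WAT, and 51.7 and 66.9 percent in perigonadal WAT. In BAT it made up 51.5 percent in replicate 2 and 23.8 percent in replicate 3, and in replicate 1 Cufflinks gave it practically none (upper bound 0.451 FPKM). BAT replicate 2 lay within the WAT range, so the groups overlapped, and the wide bounds of both transcripts leave each split imprecise.

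**Figure D2:**
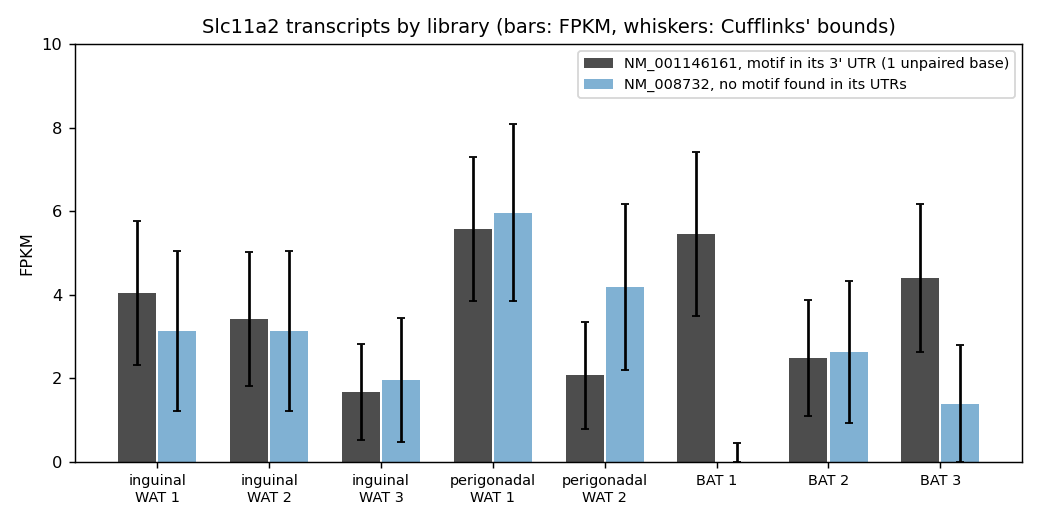
FPKM of the 2 Slc11a2 transcripts in each of the 8 libraries (bars from 0), with the confidence bounds Cufflinks gave for that library as whiskers. NM_008732 is near 0 in BAT replicate 1 and at 1.37 to 5.96 FPKM in the other libraries.

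Hmox1 (chr8:77617517-77624492, plus strand), which opens the heme ring, varied widely within BAT. It stood at 8.27, 11.3 and 6.55 FPKM in inguinal WAT, at 8.85 and 8.73 in perigonadal WAT and at 16.6, 6.67 and 20.6 in BAT. BAT replicates 1 and 3 lay above every WAT library, and BAT replicate 2 lay at the bottom of the WAT range. The log2 difference from BAT was -0.59 (SE 0.42) in inguinal WAT and -0.55 (SE 0.46) in perigonadal WAT, where scaling gave -1.13 (SE 0.41).

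The iron regulatory protein genes differed from each other. Aco1, which encodes a cytosolic aconitase that binds the hairpin when it lacks its iron-sulfur cluster (chr4:40090298-40146042, plus strand), stood at 15.3, 12.3 and 5.99 FPKM in inguinal WAT, at 28.5 and 18.1 in perigonadal WAT and at 7.06, 7.07 and 9.88 in BAT. Perigonadal WAT lay above BAT and above inguinal WAT without overlap, and inguinal WAT overlapped BAT. The log2 difference from BAT was 1.41 (SE 0.46) in perigonadal WAT, 0.79 (SE 0.21) after scaling, and 0.37 (SE 0.41) in inguinal WAT. Scaled values still did not overlap, at 15.7 to 15.9 in perigonadal WAT and 7.57 to 11.1 in BAT.

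Ireb2, whose protein is degraded when iron is plentiful (chr9:54711562-54760341, plus strand), stood at 4.197, 4.43 and 1.78 FPKM in inguinal WAT, at 6.61 and 3.18 in perigonadal WAT and at 3.19, 3.65 and 2.31 in BAT. All 3 depots overlapped. The log2 differences from BAT were 0.09 (SE 0.40) in inguinal and 0.49 (SE 0.45) in perigonadal WAT, and the latter was -0.03 (SE 0.23) after scaling. The ratio of Aco1 to Ireb2, per kilobase, was 3.66, 2.78 and 3.37 in inguinal WAT, 4.31 and 5.68 in perigonadal WAT, and 2.22, 1.94 and 4.27 in BAT. BAT replicate 3 lay inside the WAT range, close to the lower perigonadal library.

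**Figure D3:**
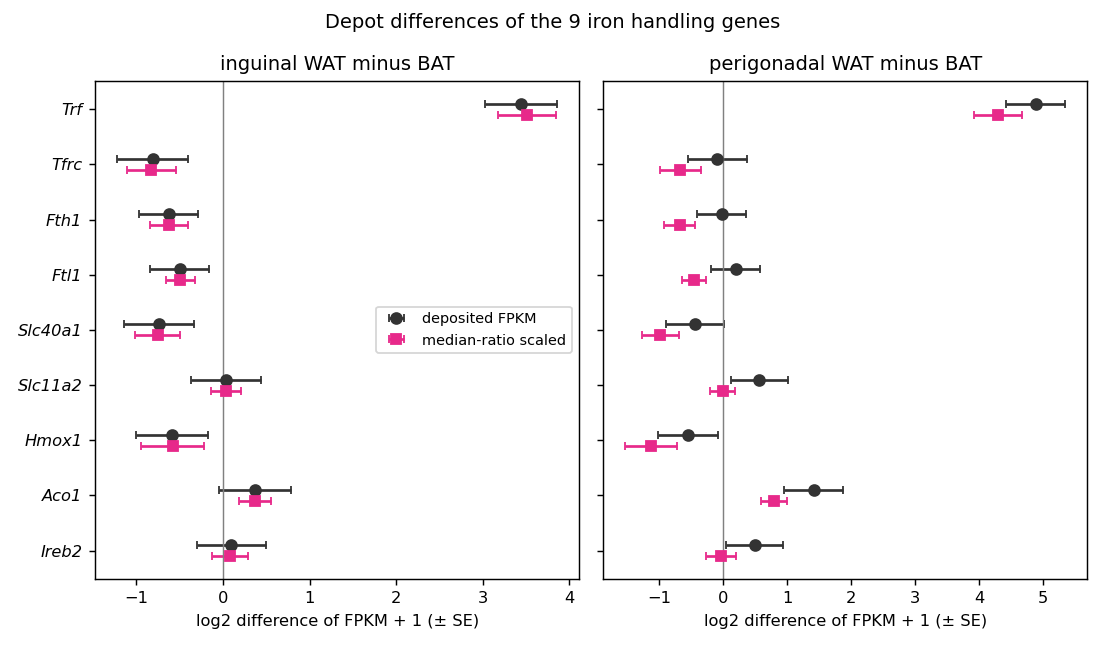
Log2 difference of FPKM + 1 from BAT (horizontal axis, with SE) for the 9 genes in inguinal WAT (left) and perigonadal WAT (right), as deposited (circles) and after median-ratio scaling (squares). Trf lies at 3.44 and 4.88 as deposited, and scaling moves every gene in the right panel to lower values.

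Set against all genes, these counts are a description, since the contrast was known when the genes were chosen. By limma at an adjusted p under 0.05, 1 of the 9 members (Trf) was called higher in inguinal WAT than in BAT and none lower, where 1.73 percent of all 8958 tested genes were called higher and 0.469 percent lower. In perigonadal WAT, 1 of 9 (again Trf) was called higher than in BAT and none lower, where 4.91 and 0.268 percent of all genes were. Between inguinal and perigonadal WAT, limma called none of the 9 (2 had an unadjusted p under 0.05), where 0.301 percent of all genes were called higher and 0.402 percent lower in inguinal WAT. Median log2 differences of the 9 genes were -0.50, 0.195 and -0.60 in these comparisons, beside 0.03, 0.52 and -0.50 for all genes. The comparisons with BAT share the same BAT libraries. All 9 genes passed the filter on low values.

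After scaling, every inguinal library lay below every BAT library for 3 of 9 members (Tfrc, Ftl1 and Slc40a1), where 11.3 percent of all genes did, and above for 1 (Trf), where 13.6 percent did. In perigonadal WAT, 4 of 9 lay below without overlap (the same 3 and Fth1), where 18.7 percent of all genes did, and 2 lay above (Trf and Aco1), where 21.0 percent did. With scaled values limma called 1 of 9 members (Trf) higher in each WAT depot than in BAT and none lower. The shares of all genes were then 3.18 percent higher and 1.65 percent lower in inguinal WAT, and 2.70 percent higher and 3.33 percent lower in perigonadal WAT.

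The genes with the most similar profile over the 8 libraries are given for the 3 members that stand for carrier, store and receptor, by Pearson's r of scaled log2 values among 3102 genes with a mean FPKM of at least 5. Libraries of a depot and their depth are shared by all genes, so these values only describe likeness. For Trf they included Slc27a1 (r = 0.9803), a fatty acid transporter, Pnpla3 (r = 0.9746), a lipid droplet protein, and Car3 (r = 0.9741), an adipocyte carbonic anhydrase. Mean FPKM of Slc27a1 was 38.1 in inguinal WAT, 105 in perigonadal WAT and 5.31 in BAT, and that of Car3 was 97.6, 327 and 3.22. For Tfrc they were Chchd6 (r = 0.971), a protein of mitochondrial cristae, Cpt1b (r = 0.9701), which commits fatty acids to mitochondrial oxidation, Letmd1 (r = 0.965) and Hadh (r = 0.9637), an enzyme of beta-oxidation. For Fth1 they were Chchd7 (r = 0.9708), Eif5a (r = 0.9423), a translation factor, Sdccag3 (r = 0.94) and Tmem120a (r = 0.9383).

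Beyond the 9 members, 60 other iron and heme genes of 76 found in the files passed the filter, in 6 lists drawn up by function. In inguinal WAT 4 were called higher and 2 lower than in BAT, where 1.73 and 0.469 percent of all genes were. The median log2 difference was 0.02, beside 0.03 for all genes. In perigonadal WAT 5 were called higher and none lower (1 lower at an unadjusted p under 0.05), where 4.91 and 0.268 percent of all genes were. The median there was 0.57 beside 0.52 for all genes. After scaling the perigonadal count was 3 higher and 5 lower, where 2.70 and 3.33 percent of all genes were. Adjusted p-values are from limma with Benjamini-Hochberg adjustment over all 8958 genes.

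Genes of iron export and iron-binding secreted proteins made up all 4 of the wider genes called higher in inguinal WAT and 3 of the 5 in perigonadal WAT, or 1 of 3 (Hephl1) in perigonadal WAT after scaling. Of the 8 tested genes of that list, 4 passed as higher than BAT in inguinal WAT (median log2 difference 1.57) and 3 in perigonadal WAT (median 1.08). None was lower (0 at an unadjusted p under 0.05 in either depot). Ltf, Hephl1 and Heph reached an FPKM of 1 only in WAT libraries. In BAT, Cp reached it only in replicate 1 and Lcn2 only in replicate 2. These genes passed the filter on low values through WAT, so nothing is read from the counts and medians of this list. Of all genes, 1.73 percent were called higher in inguinal and 4.91 percent in perigonadal WAT. Hephl1, a membrane-bound ferroxidase of the ceruloplasmin family, stood at 2.55, 9.14 and 6.19 FPKM in inguinal WAT, at 8.34 and 13.4 in perigonadal WAT and at 0.124, 0.120 and 0.242 in BAT. All WAT libraries were above all BAT libraries, which held 4 recovered fragments of Hephl1 in total. The log2 difference was 2.46 (SE 0.40, adjusted p = 9.54e-06) in inguinal and 3.32 (SE 0.45, adjusted p = 7.75e-08) in perigonadal WAT. The inguinal call was lost only when no filter on low values was used (adjusted p = 0.0833), and the perigonadal call held in all 18 other settings.

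Cp, ceruloplasmin, which oxidises iron as ferroportin releases it, lay outside the naming rule and was added after its values were seen. It stood at 6.84, 3.77 and 4.05 FPKM in inguinal WAT, at 2.80 and 3.12 in perigonadal WAT and at 1.02, 0.236 and 0.242 in BAT. The 3 depots did not overlap, with inguinal WAT highest and BAT lowest. The log2 difference from BAT was 1.98 (SE 0.38, adjusted p = 0.000301) in inguinal WAT and 1.44 (SE 0.43, adjusted p = 0.031) in perigonadal WAT, where scaling ended the call (1.04, adjusted p = 0.113). The inguinal call was lost with no filter on low values (adjusted p = 0.0833). The perigonadal call was lost in 9 of the 17 other settings that tested Cp. These included leaving out BAT replicate 2 or 3 (adjusted p = 0.164 and 0.159) and leaving out perigonadal replicate 1 or 2.

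Ltf and Lcn2, which encode the iron binder lactoferrin and the siderophore binder lipocalin 2, had their highest levels in inguinal WAT. Ltf stood at 11.6, 20.2 and 7.92 FPKM in inguinal WAT, at 0.135 and 0.173 in perigonadal WAT, where each library held 1 recovered fragment, and was listed at 0 in BAT. The log2 difference from perigonadal WAT was 3.53 (adjusted p = 1.09e-08). Lcn2 stood at 32.9, 27.2 and 9.32 FPKM in inguinal WAT, at 3.56 and 0.671 in perigonadal WAT and at 0, 2.22 and 0.779 in BAT, a log2 difference of 3.58 from BAT (SE 0.44, adjusted p = 3.99e-09) that was lost with no filter on low values (adjusted p = 0.0858). Ltf is also on the mammary list. Of the 13 tested genes of that list, 10 were called higher in inguinal WAT than in BAT and none lower. All of the 13 but Csn3 passed the filter on low values through their inguinal libraries, and stood at 0 to 0.349 FPKM in BAT. The filter thus fixed their direction, and nothing is read from this count. Of all genes, 1.73 percent were called higher and 0.469 percent lower there. The part of mammary cells in Ltf and Lcn2 was not tested. Hp, the hemoglobin scavenger haptoglobin, stood at 96.8, 89.4 and 56.4 FPKM in inguinal WAT, at 121 and 74.6 in perigonadal WAT and at 29.3, 34.9 and 40.7 in BAT, with no overlap between WAT and BAT. Its log2 difference was 1.43 in perigonadal WAT (SE 0.42, adjusted p = 0.0298) and 1.16 in inguinal WAT (SE 0.38, adjusted p = 0.103). The perigonadal Hp call was lost in 7 of 18 other settings. These included scaling (adjusted p = 0.0512), leaving out BAT replicate 1, 2 or 3 (0.177, 0.117 and 0.0792) and leaving out perigonadal replicate 1. The inguinal difference passed after scaling (adjusted p = 0.00592).

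Genes of mitochondrial iron import and iron-sulfur cluster assembly had the lowest median log2 difference from BAT of the 6 lists in both depots. Of 18 tested, 2 were called lower in inguinal WAT and none higher, where 0.469 and 1.73 percent of all genes were. The median was -0.50 beside 0.03 for all genes. In perigonadal WAT limma called none (1 higher and 1 lower at an unadjusted p under 0.05) and the median was -0.04 beside 0.52 for all genes. After scaling 4 were called lower there (Bola3, Hscb, Isca2 and Nfu1), where 3.33 percent of all genes were, with a median of -0.64 beside 0.04. Bola3, a late-acting cluster assembly factor, stood at 38.4, 53.5 and 23.1 FPKM in inguinal WAT, at 52.6 and 42.4 in perigonadal WAT and at 92.2, 112 and 77.5 in BAT. All 5 WAT libraries lay below all 3 BAT libraries.

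The Bola3 difference from BAT was -1.33 on the log2 scale in inguinal WAT (SE 0.38, adjusted p = 0.0422) and -0.96 in perigonadal WAT (SE 0.43, adjusted p = 0.182), where scaling gave -1.60 (SE 0.23, adjusted p = 0.00343). Hscb, a cochaperone of cluster assembly, stood at 2.00, 2.04 and 2.33 FPKM in inguinal WAT, at 5.24 and 3.12 in perigonadal WAT and at 6.89, 7.69 and 6.03 in BAT, again with every WAT library below BAT. Its log2 difference in inguinal WAT was -1.33 (SE 0.39, adjusted p = 0.0498), on 9 recovered fragments over the inguinal libraries and 28 over BAT. Of 18 other settings, 11 lost the inguinal call of Bola3 and 9 that of Hscb. Neither inguinal call held up when single libraries were left out. Bola3 lost it without inguinal replicate 1 (adjusted p = 0.107), perigonadal replicate 1 or 2 (0.0571 and 0.0566) or BAT replicate 1, 2 or 3 (0.232, 0.406 and 0.115). Hscb lost it without inguinal replicate 1 or 2 (0.17 and 0.173) or BAT replicate 1, 2 or 3 (0.256, 0.322 and 0.149). After scaling both passed, at adjusted p = 0.00495 for Bola3 and 0.0203 for Hscb.

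**Figure D4:**
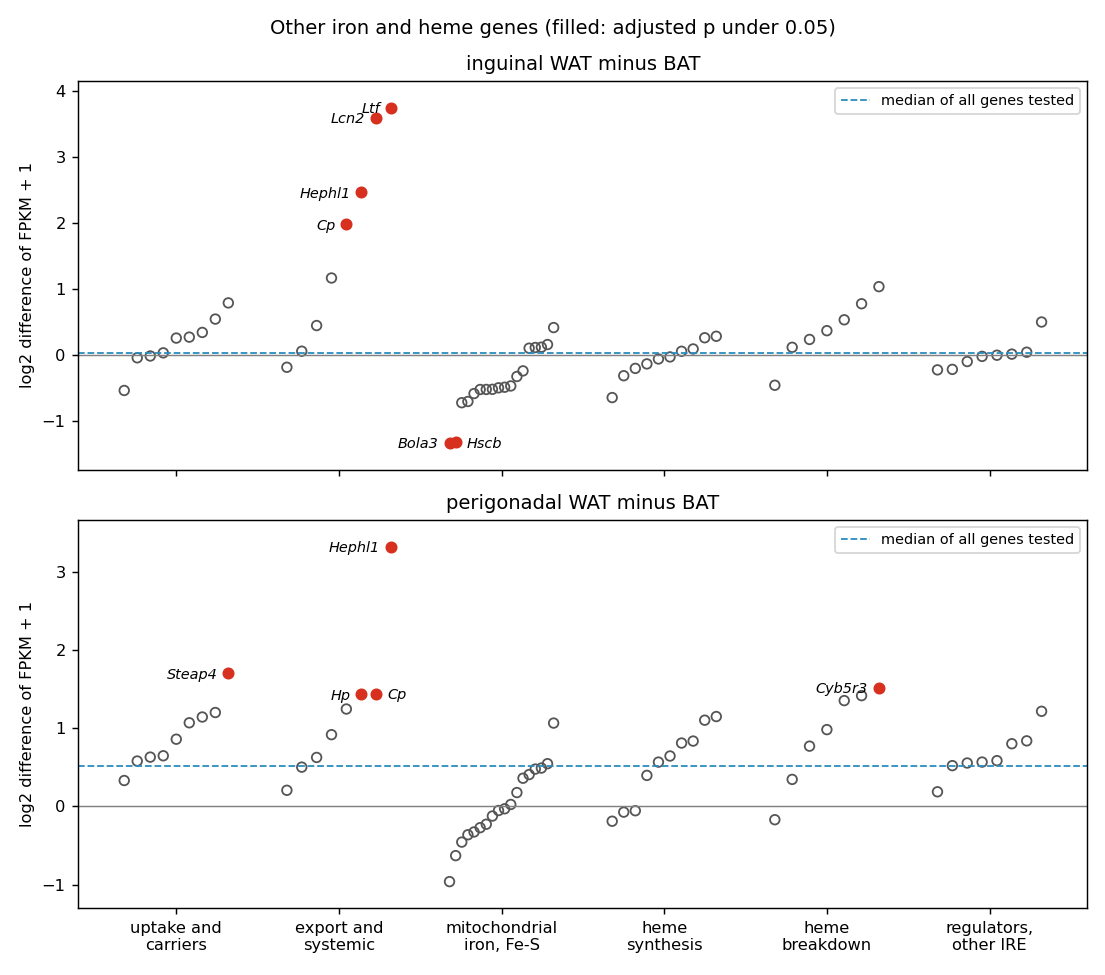
Log2 difference of FPKM + 1 from BAT (vertical axis) for 60 iron and heme genes outside the 9 members, in 6 lists, for inguinal WAT (top) and perigonadal WAT (bottom); filled points have an adjusted p under 0.05 and the dashed line is the median of all 8958 genes. Hephl1 and Cp are called in both depots, Ltf and Lcn2 in inguinal WAT, and most mitochondrial genes lie below the dashed line.

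Iron uptake and intracellular carriers held 9 tested genes. In inguinal WAT limma called none (0 at an unadjusted p under 0.05), with a median of 0.25. In perigonadal WAT it called 1 higher, where 4.91 percent of all genes were, with a median of 0.86 beside 0.52 for all genes. That gene was Steap4, a metalloreductase, which stood at 18.7, 9.21 and 7.19 FPKM in inguinal WAT, at 28.5 and 15.8 in perigonadal WAT and at 7.59, 5.06 and 5.19 in BAT. Perigonadal WAT lay above BAT without overlap, by a log2 difference of 1.70 (SE 0.46, adjusted p = 0.0152) and by 1.09 after scaling (adjusted p = 0.0396). The Steap4 call was lost in 5 of 18 other settings. These included leaving out BAT replicate 2 or 3 (adjusted p = 0.0906 and 0.0842) and leaving out perigonadal replicate 1. Ncoa4, which leads ferritin to degradation, and Pcbp1, which delivers iron to ferritin, had log2 differences of 1.20 (adjusted p = 0.116) and 1.14 (adjusted p = 0.145) in perigonadal WAT, and 0.58 and 0.52 after scaling.

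Limma called none of 10 tested heme synthesis genes. Red cell precursors also make heme: the erythroid markers summed to 0.230 to 1.26 FPKM in inguinal WAT, 8.63 to 14.5 in perigonadal WAT and 4.81 to 8.37 in BAT, with Slc4a1 and Klf1 at 0 in all libraries, and their part was not tested. The medians were -0.05 in inguinal WAT (0 genes at an unadjusted p under 0.05) and 0.61 in perigonadal WAT (2 higher), and -0.003 in perigonadal WAT after scaling. Tmem14c, a mitochondrial porphyrin carrier, differed from BAT by -0.32 and -0.07 in inguinal and perigonadal WAT, and Urod, a decarboxylase of the pathway, by -0.03 and 0.64. Among 7 genes of heme breakdown and transport limma called none in inguinal WAT (1 higher at an unadjusted p under 0.05). In perigonadal WAT it called Cyb5r3 higher, where 4.91 percent of all genes were. Cyb5r3, a cytochrome b5 reductase, stood at 24.3, 32.9 and 13.3 FPKM in inguinal WAT, at 43.8 and 32.2 in perigonadal WAT and at 11.4, 14.4 and 11.9 in BAT. Every perigonadal library lay above BAT, by a log2 difference of 1.51 (SE 0.45, adjusted p = 0.0319) and 0.88 after scaling (adjusted p = 0.0317).

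The Cyb5r3 call was lost in 8 of 18 other settings. These included leaving out BAT replicate 1, 2 or 3 (adjusted p = 0.153, 0.0911 and 0.137) and leaving out perigonadal replicate 1 or 2. Por, the reductase that feeds electrons to heme oxygenase, had a log2 difference of 1.35 in perigonadal WAT (adjusted p = 0.0574). Of 8 tested regulators and other transcripts known for a hairpin, limma called none in either depot (0 in inguinal WAT and 1 higher in perigonadal WAT at an unadjusted p under 0.05). Epas1, the oxygen-sensing factor HIF-2 alpha, differed from BAT by -0.22 in inguinal and 0.84 in perigonadal WAT on the log2 scale, the latter 0.21 after scaling. A hairpin match was found in the 5′ UTR of Epas1 (1 unpaired base), and in the 3′ UTR of Bola3 (full stem) and Bach1 (1 unpaired base). The reference transcript with the Bola3 match has 2312 nt, whereas the Bola3 transcript with deposited FPKM has 530 nt. Whether the match lies in that shorter transcript was not tested.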

How the data were processed

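RNA sequencing of UCP1-TRAP material gave 8 libraries, grouped by the tissue label with replicate numbers from the titles. The submitters' processing notes name TopHat, Cufflinks and the build mm9, without versions. The deposited files hold FPKM computed by the authors for each library, with confidence bounds, for 28702 transcripts. Fragment numbers of genes with 1 transcript were recovered from the FPKM and its upper bound, and in each library 84.4 to 93.3 percent of the low ones were whole numbers to within 0.05. They cover counting error only.

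FPKM was summed per gene. The filter asked for an FPKM of 1 or more in 2 or more libraries, and left out genes with no transcript of 300 nt or more. Then log2(FPKM + 1) was fitted with limma 3.58.1 (trend, R 4.3.3) in 1 model of 3 groups, two-sided, with Benjamini-Hochberg adjustment over 8958 genes per comparison. The procedure was tested on simulated data. Tables and figures were made with matplotlib 3.10.9, numpy 2.4.6 and pandas 2.3.3 under Python 3.11.15. Coordinates are those of the files (mm9), and hairpin positions are counted along GENCODE M21 (GRCm38) transcripts.

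Members, lists and markers were chosen with earlier results of these data known. Named genes were all members, the called genes of each wider list (up to 4 by mean FPKM), its 2 most abundant genes where fewer than 2 were called, and the 4 genes most like Trf, Fth1 and Tfrc. Some genes that this rule names are not reported here. Alternatives were other pseudocounts, filters, scalings and transcript choices, fits of only the groups compared or with a replicate block, and leaving out each library.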

Additional observations from a re-analysis of the deposited data

How the results depend on the processing

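Over 18 other settings the log2 difference of Trf from BAT ran from 2.165 to 4.203 in inguinal and from 3.465 to 5.675 in perigonadal WAT. This describes refits of the same 8 libraries in which the gene was chosen and is no independent support. Counts of called genes depended on the setting. From 197 in inguinal WAT against BAT, the count was 131 with a pseudocount of 0.1, 11 with no filter on low values, 124 with a minimum FPKM of 5, 433 with median-ratio scaling, 407 with quantile normalization, and 109 to 336 when single libraries were left out. From 464 in perigonadal WAT against BAT it was 214 with a pseudocount of 0.1, 117 with no filter, 307 with a minimum FPKM of 5, 1079 when only the groups compared were fitted, and 105 to 1326 with single libraries left out. From 63 between the WAT depots it was 5 and 146 with pseudocounts of 0.1 and 5, 9 with no filter, 32 with a minimum FPKM of 5, 26 with median-ratio scaling (all higher in inguinal WAT), 39 with quantile normalization, 34 with only the groups compared, and 11 to 220 with single libraries left out. Of the 60 wider iron genes, the 6 called in inguinal WAT against BAT became 1 with no filter. The 5 called in perigonadal WAT against BAT became 2 with a pseudocount of 0.1, 1 with no filter, 8 with median-ratio scaling, 9 with quantile normalization, 16 with only the groups compared, and 1 (without perigonadal replicate 1, BAT replicate 2 or BAT replicate 3) to 18 (without inguinal replicate 3). The 2 called between the WAT depots became 1 with a pseudocount of 0.1 and 1 with no filter. The cause of these changes was not tested. For the 40 differences of single genes, 715 refits gave 54 lost and 8 gained calls, and no called difference changed sign. With the replicate number as a block, 3 wider iron genes instead of 5 were called in perigonadal WAT against BAT. In inguinal WAT against BAT, 7 instead of 6 were called. Of all genes, the block gave 280 calls instead of 197 in inguinal WAT and 418 instead of 464 in perigonadal WAT against BAT. Between the WAT depots it gave 88 instead of 63. Deviations of same-numbered inguinal and BAT libraries correlated at 0.126, 0.08 and 0.1 for replicates 1, 2 and 3. Those of differently numbered inguinal and BAT libraries correlated between -0.077 and -0.033. Deviations from a group mean cancel out within the group, so positive values for same-numbered pairs make the others negative on average. Same-numbered pairs with a perigonadal library were between -0.087 and -0.014, where the deviations of the 2 perigonadal libraries mirror each other. These values do not decide whether the numbers pair the samples, and the main fit did not use the replicate numbers. With 16 recovered fragments of Trf in BAT, the depth limits the size of its fold more than its direction.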
